A study of Bos taurus with 12 samples.

Results

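Keratins and vimentin are the proteins of intermediate filaments by which the cell layers of the mammary gland are told apart. The genes described here are the luminal keratins KRT7, KRT8, KRT18 and KRT19, the basal keratins KRT5, KRT14, KRT15 and KRT17, and VIM. They were taken by symbol, as every probe set whose single gene symbol in the array annotation is one of the 9 names. This gave 11 of 24128 probe sets on the array, 2 each for KRT5 and KRT15 and 1 for each of the other genes. Per gene, the brightest probe set by its mean over the arrays stands for the gene.

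Epithelium and intralobular stroma of 6 dry Holstein cows, biopsied 3 weeks before calving, were each cut out by laser from frozen sections of mammary explants, and the amplified RNA was read on Bovine GeneChips. The explants of both tissues had been cultured for 2 h with insulin, hydrocortisone and the nucleoside BrdU, so no tissue without hormones was part of the comparison. Each cow gave 1 array per tissue, 12 arrays in all, and the lactation number in the labels was 3 for cow 1, 2 for cow 2 and 1 for cows 3 to 6, although the methods call the cows multiparous. The stromal captures were aimed at fibroblasts, with vessels and visible immune cells avoided, and myoepithelial cells were not captured as a tissue of their own.

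Keratin filaments are built from type I and type II chains that have to pair with each other. In the mammary gland the inner, milk-forming luminal cells hold KRT8 with KRT18, together with KRT7 and KRT19, and the outer contractile myoepithelial cells on the basement membrane hold KRT5 with KRT14, together with KRT17. Fibroblasts, endothelial cells and leukocytes hold filaments of vimentin instead, and myoepithelial cells can hold some vimentin as well.

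The values are log2 intensities, on which a difference of 1 is a 2-fold change. They ran from 0.78 to 14.4 on these arrays, and the array medians lay between 2.95 and 3.08. Tissue differences are epithelium minus stroma, fitted by limma with cow as a block on the 10000 brightest probe sets, with Benjamini-Hochberg adjustment across these probe sets and a threshold of 0.05. Epithelium was the higher tissue for 4.77% of the tested probe sets (477) and stroma for 4.54% (454). The median of all differences was 0.18. With arrays centred on their tested medians this median was 0.0081, the counts were 360 and 515, and no keratin or VIM call changed. Of the 10 tested probe sets of keratins and VIM, the test called 5 for epithelium, 1 for stroma and left 4 without a call. The 5 were all 4 luminal keratins and the brighter probe set of KRT15, and the 1 was VIM. The probe set outside the tested ones was the second of KRT15. Precision is limited by the number of arrays. In bulk captures, fewer cells of a type and less RNA per cell cannot be told apart.

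Expression of each luminal keratin was greater in the epithelium of all 6 cows, with mean differences over the cows of 5.05-fold to 15.0-fold. Within single cows, the log2 differences ran from 0.78 for KRT19 in cow 5 to 5.44 for KRT7 in cow 2. Of the basal keratins, only KRT15 passed the test. KRT5, KRT14 and KRT17 were each higher in epithelium in 2 cows and higher in stroma in 4 cows. VIM was higher in the stroma of all 6 cows. Of all tested probe sets, 9.34% were higher in epithelium in all 6 cows and 7.05% were higher in stroma in all 6. The median difference was 3.13 over the 4 luminal keratins and -0.31 over the 4 basal keratins, beside 0.20 over all 5212 tested genes.

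**Figure D1:**
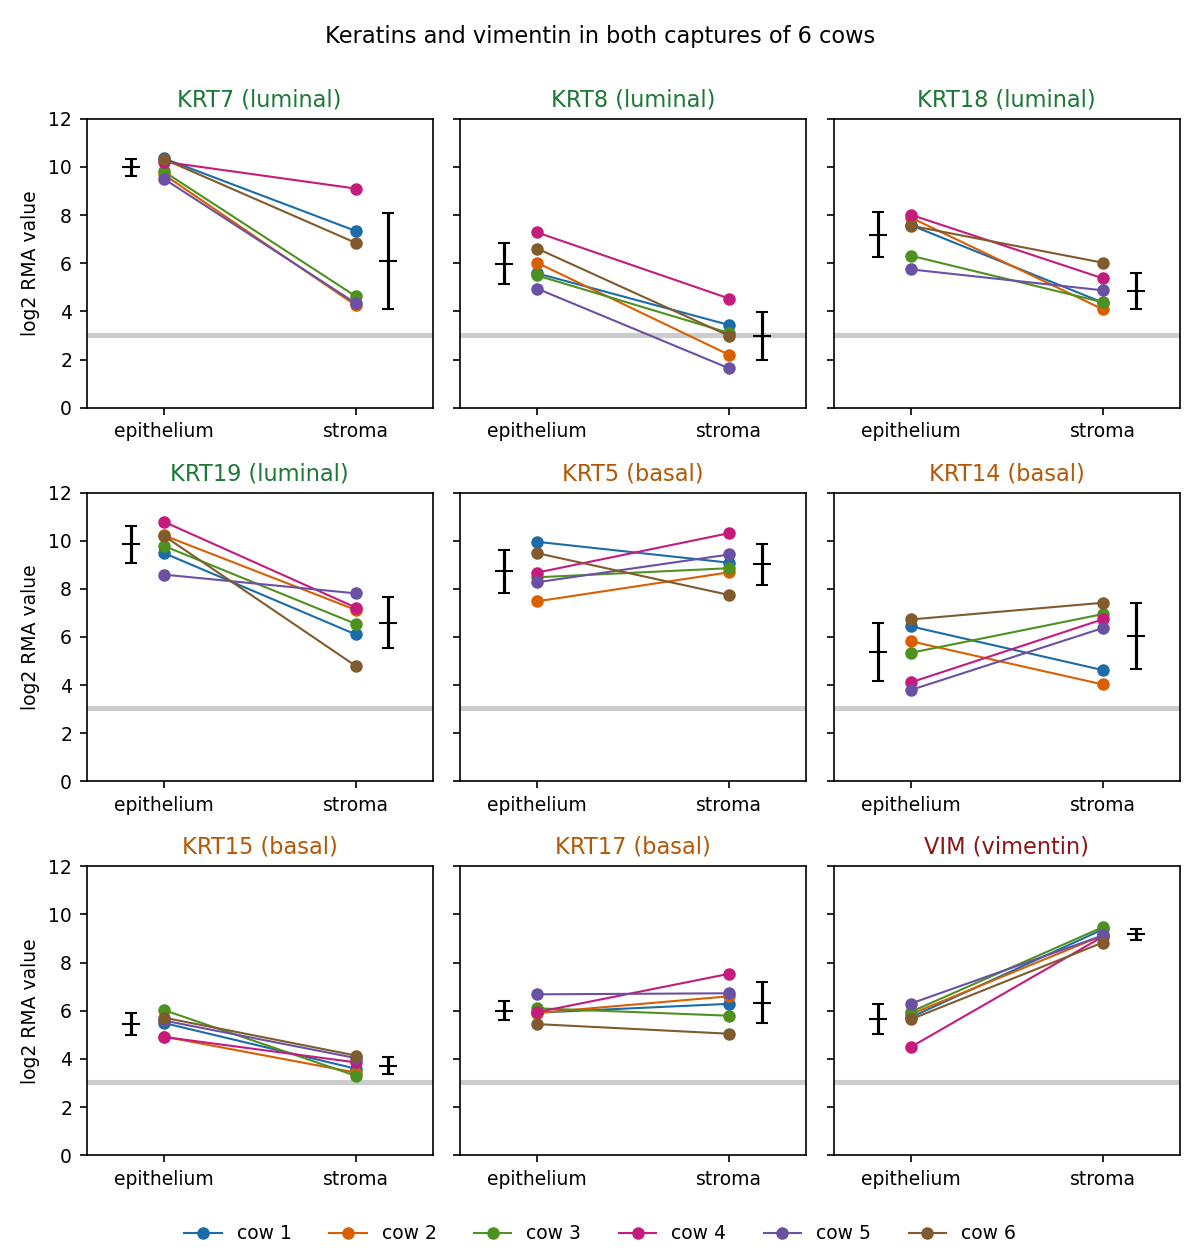
Log2 RMA value (vertical axis) of each gene's brightest probe set in epithelium (left) and stroma (right) of 6 cows. Each colored line joins both captures of a cow, the black marks are mean ± SD (n = 6 arrays), and the grey band spans the array medians of 2.95 to 3.08. The lines fall from left to right in all 6 cows for KRT7, KRT8, KRT18, KRT19 and KRT15, climb in all 6 for VIM, and cross for KRT5, KRT14 and KRT17.

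KRT7, a type II keratin of ducts and glands, lay between 9.51 and 10.36 in epithelium, with a median of 10.01, and between 4.25 and 9.10 in stroma, with a median of 5.73. The tissues did not overlap, although the stroma of cow 4 came within 1.11 of the epithelium of the same cow. The difference was 3.91 (standard error 0.60, adjusted p = 0.00481, limma over 6 cows). The epithelial captures were close to each other (SD 0.36) and the stromal ones were far apart (SD 1.99). Stromal KRT7 was 9.10, 7.34 and 6.84 in cows 4, 1 and 6, and it was 4.62, 4.34 and 4.25 in cows 3, 5 and 2.

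KRT8, the type II keratin of simple epithelia, lay between 4.94 and 7.28 in epithelium, with a median of 5.80, and between 1.63 and 4.53 in stroma, with a median of 3.04. The tissues did not overlap, and the difference was 3.01 (standard error 0.37, adjusted p = 0.00151, limma). In the stroma of cows 2 and 5 KRT8 was below the median of its own array, at 2.19 and 1.63, so its fold of 8.05 rests on a stromal signal at background level and is a rough value. KRT8 also passed with no filter on dim probe sets (adjusted p = 0.00270).

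KRT18, the type I partner of KRT8, lay between 5.74 and 8.01 in epithelium, with a median of 7.57, and between 4.08 and 6.02 in stroma, with a median of 4.62. Here the tissues overlapped, since the epithelium of cow 5 (5.74) was below the stroma of cow 6 (6.02), but within each cow the epithelium was higher, by 0.87 to 3.81. The mean difference was 2.34, a 5.05-fold change (standard error 0.46, adjusted p = 0.0138, limma). The call was lost without cow 1, where the difference was 2.16 with an adjusted p of 0.0531.

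KRT19, a type I keratin of simple epithelia that lacks most of the tail of its relatives, lay between 8.59 and 10.79 in epithelium, with a median of 10.00, and between 4.80 and 7.81 in stroma, with a median of 6.83. The tissues did not overlap, and the difference of 3.25 was a 9.51-fold change (standard error 0.55, adjusted p = 0.00714, limma). Within cows it ran from 0.78 in cow 5 to 5.41 in cow 6. Of the tested probe sets, 2.8% had all 6 epithelial values above all 6 stromal values, and KRT7, KRT8, KRT19 and the brighter probe set of KRT15 were among them.

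**Figure D2:**
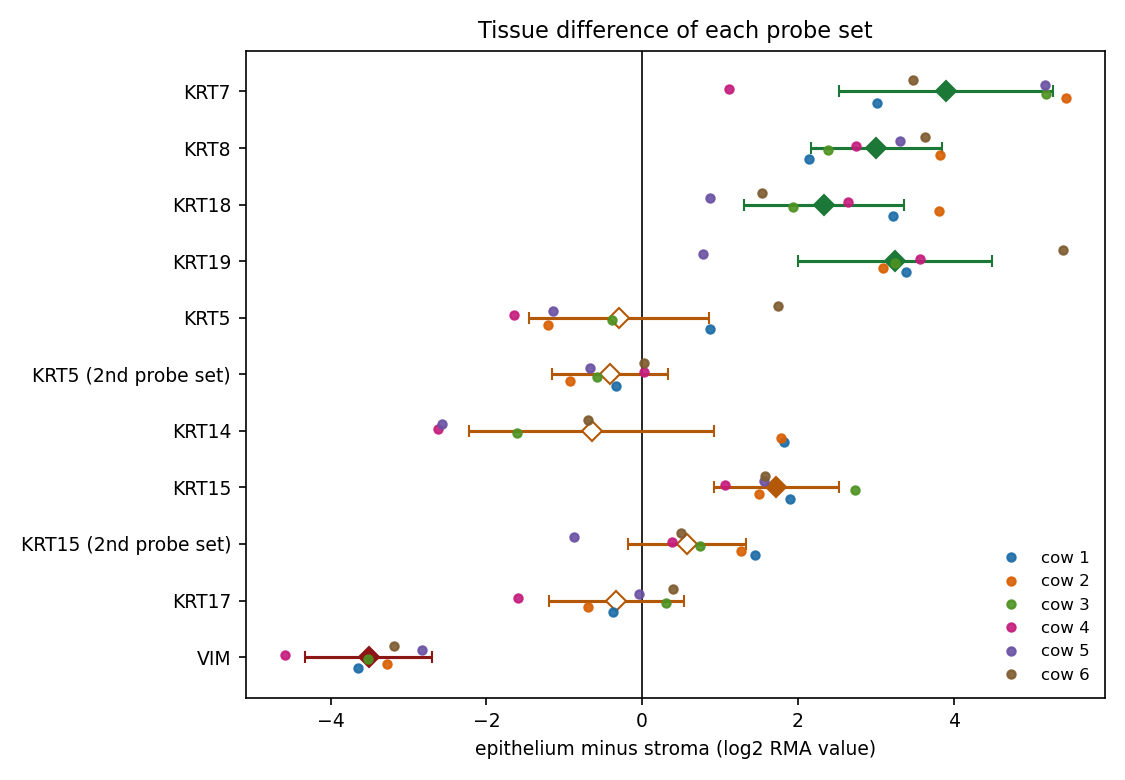
Epithelium minus stroma difference (horizontal axis, log2 RMA value) of the 11 probe sets. Diamonds with bars are the limma estimate and its 95% confidence interval, filled where the adjusted p is under 0.05 and green for luminal keratins, brown for basal keratins and red for VIM, and each small point is a cow. The intervals of the luminal keratins and of the brighter KRT15 probe set lie right of 0, that of VIM left of it, and those of KRT5, KRT14, KRT17 and the second KRT15 probe set include 0.

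The luminal keratins did not differ by the same amount within a cow. KRT8 and KRT18, which pair in one filament, had differences of 2.15 and 3.22 in cow 1, 2.39 and 1.94 in cow 3, 2.75 and 2.64 in cow 4, and 3.31 and 0.87 in cow 5. The difference of KRT8 minus that of KRT18 was 0.67 ± 1.34 (SD, n = 6 cows) and above 0 in 5 of the 6. For KRT7 and KRT19, the difference of KRT7 minus that of KRT19 ran from -2.46 in cow 4 to 4.40 in cow 5 and was above 0 in 3 cows and below 0 in the other 3. These gaps were not tested.

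KRT5, the type II keratin of basal and myoepithelial cells, lay between 7.48 and 9.95 in epithelium, with a median of 8.58, and between 7.74 and 10.31 in stroma, with a median of 8.97. Both ranges lay far above the array medians and overlapped almost entirely. The difference was -0.30 (standard error 0.51, adjusted p = 0.773, limma), with a 95% confidence interval of -1.46 to 0.87, that is from 2.74-fold higher in stroma to 1.82-fold higher in epithelium. KRT5 was higher in epithelium by 0.87 in cow 1 and 1.74 in cow 6, and the other 4 cows had differences of -0.38 to -1.64. Its second probe set was dim, with 3.76 ± 0.49 in epithelium and 4.17 ± 0.36 in stroma (SD, n = 6 each), and had a difference of -0.41 (standard error 0.33, adjusted p = 0.494).

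KRT14, the type I partner of KRT5, lay between 3.80 and 6.73 in epithelium, with a median of 5.58, and between 4.03 and 7.42 in stroma, with a median of 6.55. The ranges overlapped, and the difference of -0.65 (standard error 0.69, adjusted p = 0.620, limma) had the widest interval of the 11 probe sets, from -2.22 to 0.93. Within cows KRT14 went both ways by a large amount. It was higher in epithelium by 1.82 in cow 1 and 1.79 in cow 2, and its differences were -1.61, -2.62, -2.57 and -0.69 in cows 3 to 6. The difference of KRT5 minus that of KRT14 ran from -3.00 in cow 2 to 2.43 in cow 6.

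KRT17, a type I keratin of basal cells that is also induced in stressed epithelia, lay between 5.45 and 6.68 in epithelium, with a median of 5.93, and between 5.05 and 7.54 in stroma, with a median of 6.45. The difference was -0.33 (standard error 0.38, adjusted p = 0.649, limma), with an interval of -1.20 to 0.54. The stroma of cow 4 held both the highest KRT17 value (7.54) and the highest KRT5 value (10.31) of all 12 arrays, and the stroma of cow 6 held the lowest KRT17 value (5.05). The intervals leave room for differences of more than 1.5-fold in either direction for KRT5 and KRT14, so the data do not show that they were equal in both tissues.

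KRT15, a type I keratin of basal layers of stratified epithelia, was the exception among the basal keratins. Its brighter probe set lay between 4.92 and 6.04 in epithelium, with a median of 5.55, and between 3.30 and 4.14 in stroma, with a median of 3.73. The tissues did not overlap, and the difference was 1.72, a 3.30-fold change (standard error 0.35, adjusted p = 0.0175, limma), with 1.06 in cow 4 as the smallest and 2.73 in cow 3 as the largest. The call was lost without cow 1 (adjusted p = 0.0597), and when the mean over both KRT15 probe sets was used (difference 1.15, adjusted p = 0.0798). The second probe set had 3.46 ± 0.43 in epithelium and 2.88 ± 0.65 in stroma (SD, n = 6 each), was below the median of its own array in 5 of 6 stromal captures, and had a difference of 0.58 (adjusted p = 0.418 in a fit of all probe sets). The difference of KRT15 minus that of KRT5 was 2.02 ± 1.29 (SD, n = 6 cows) and above 0 in 5 of 6 cows.

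In the order of genes in the RefSeq annotation of assembly ARS-UCD2.0, KRT15 and KRT19 are direct neighbours, and so are KRT8 and KRT18. Between KRT14 and KRT17 lies 1 coding gene, KRT16, and KRT5 lies in the same cluster as KRT7, KRT8 and KRT18, with 14 coding genes between it and KRT8. The genes higher in epithelium were thus found in both keratin clusters, each of which also held a gene that did not pass the test.

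VIM lay between 4.49 and 6.30 in epithelium, with a median of 5.79, and between 8.84 and 9.48 in stroma, with a median of 9.13. All 6 stromal values were above all 6 epithelial values, as for 3.4% of the tested probe sets, and the difference was -3.51 (standard error 0.36, adjusted p = 0.000620, limma). The stromal captures were close to each other (SD 0.23) and the epithelial ones less so (SD 0.62). VIM in epithelium was above the array medians in all 6 cows, with the lowest value in cow 4 and the highest in cow 5.

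**Figure D3:**
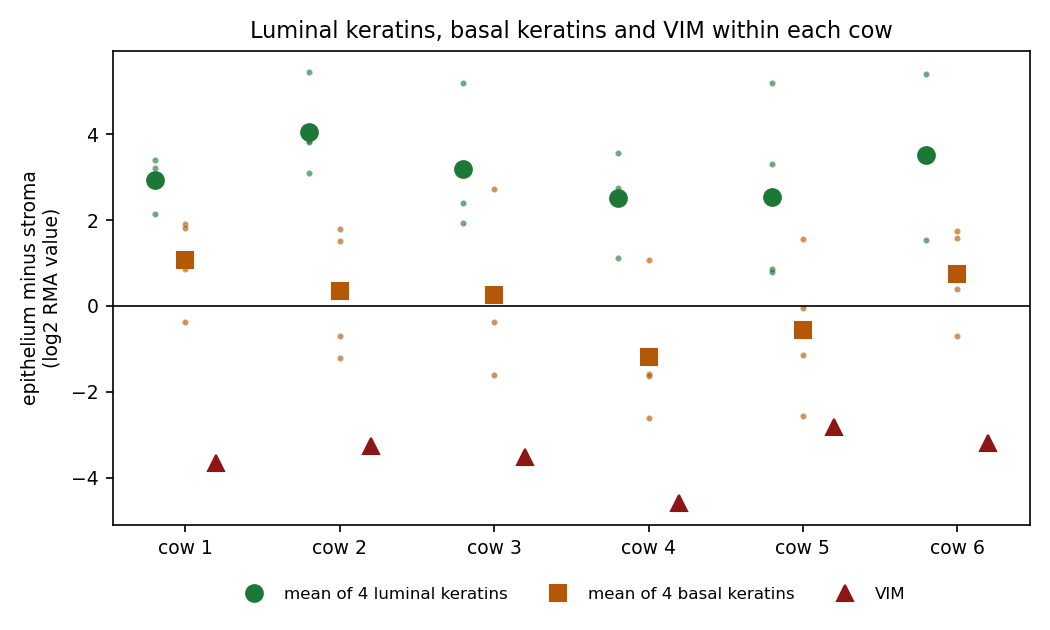
Epithelium minus stroma difference (vertical axis, log2 RMA value) within each of 6 cows for the luminal keratins (green), the basal keratins (brown) and VIM (red). Large symbols are the mean over the 4 genes of a group, or VIM, and small points are single keratins. In each cow the luminal mean lies above the basal mean, by 1.89 to 3.72, and VIM lies below both.

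Within each cow, the luminal mean difference was larger than the basal one. The mean over the luminal keratins was higher in epithelium by 3.13 ± 0.59 (SD, n = 6 cows), and that over the basal keratins by 0.11 ± 0.84, with 4 cows above 0 and 2 below. The luminal difference minus the basal difference was 1.89, 3.70, 2.93, 3.72, 3.09 and 2.76 in cows 1 to 6, with a mean of 3.01 ± 0.68. With KRT15 left out of the basal keratins, a choice made after its values were seen, the mean was 3.55 ± 0.82. The luminal difference minus that of VIM was 6.64 ± 0.68 and the basal difference minus that of VIM was 3.62 ± 0.80, both above 0 in all 6 cows. These are descriptions and have no test, since the genes were chosen with results of these data known.

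Among the epithelial captures, that of cow 5 had the lowest KRT7, KRT8, KRT18 and KRT19 values of the 6 (9.51, 4.94, 5.74 and 8.59) and the highest VIM value (6.30). The same capture had the highest mean over the 10 tested fibroblast markers, at 5.43 against 3.27 to 4.77 in the other 5, and the highest mean over the 11 tested myoepithelial markers, at 6.46 against 4.60 to 5.93. Of the basal keratins it had the lowest KRT14 (3.80) and the highest KRT17 (6.68) of the 6. Its KRT5 (8.27) and KRT15 (5.60) lay within the range of the others. Its mean over the 11 tested luminal markers other than keratins was not the lowest, at 7.45 against 7.22 to 7.77, and it held the highest epithelial values of ELF5 (11.16) and ERBB3 (8.23). The epithelium of cow 4 was at the other end. It had the highest KRT8, KRT18 and KRT19 values (7.28, 8.01 and 10.79), the lowest VIM value (4.49) and the lowest fibroblast marker mean (3.27). Among the stromal captures, the 3 with the highest KRT7, those of cows 4, 1 and 6, also had the highest means over these luminal markers, at 5.25, 5.02 and 4.70, against 4.63, 4.22 and 3.96 in cows 3, 2 and 5. KRT8 in stroma came close to the order of the luminal markers. It was highest in cows 4 and 1 (4.53 and 3.43), then 3.10 and 2.98 in cows 3 and 6, and lowest in cows 2 and 5 (2.19 and 1.63). The values of cows 3 and 6 lay only 0.081 and 0.0068 above their array medians, and those of cows 2 and 5 below them. The order of KRT8 among these cows rests on signal at background level. KRT18 and KRT19 in stroma did not follow the order of the luminal markers, with their highest values in cow 6 (6.02) and cow 5 (7.81). The part of other cells in the keratin and VIM differences was not tested.

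The control RNAs added to each sample, read from 24 probe sets, averaged between 3.07 and 6.58 in the epithelial captures. In the stromal captures they averaged 4.28 and 4.15 in cows 1 and 2 and between 7.10 and 11.0 in cows 3 to 6. Without cows 5 and 6, whose stromal control RNA was highest, the 4 luminal keratins and VIM still passed the test, and KRT15 had a difference of 1.80 and did not (adjusted p = 0.0717). That fit kept cows 3 and 4, with control RNA of 7.10 and 9.07 in stroma against 6.58 and 4.24 in epithelium. In cows 3 to 6 control RNA was higher in stroma, so tissue and control RNA cannot be told apart there.

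**Figure D4:**
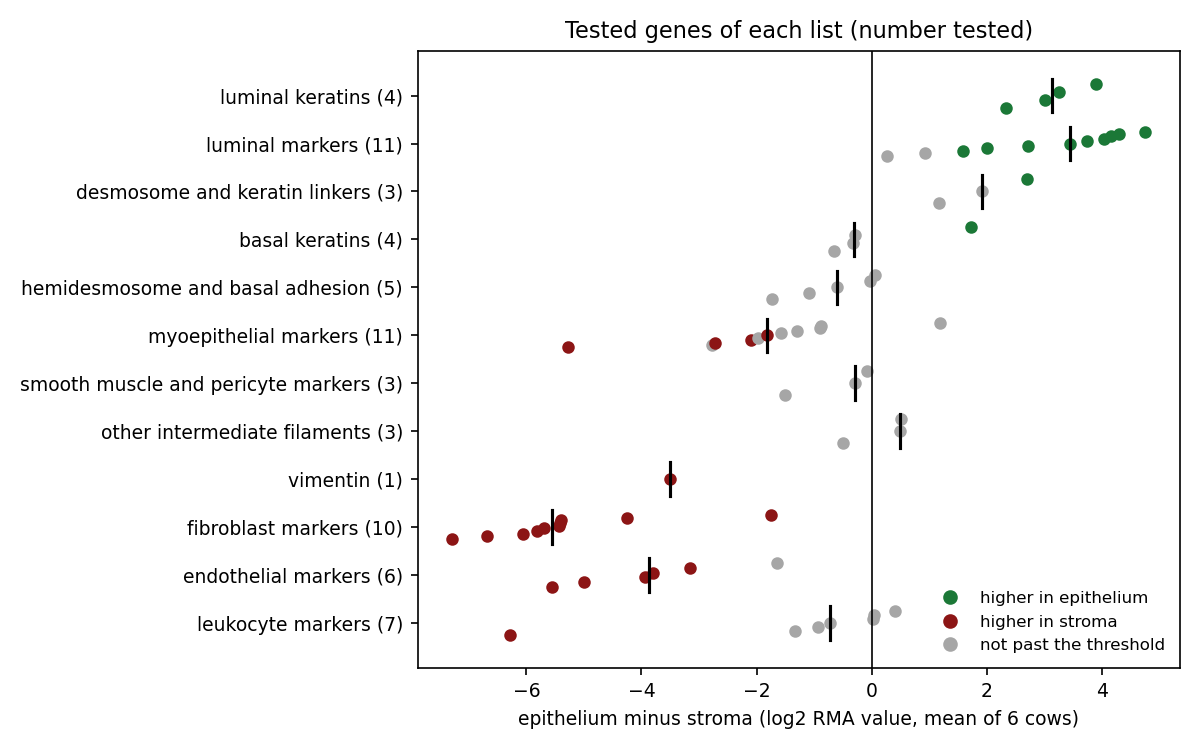
Mean epithelium minus stroma difference over 6 cows (horizontal axis, log2 RMA value) for the tested genes in 12 lists, with the number tested in brackets. Green points were higher in epithelium and red points in stroma at an adjusted p under 0.05, grey points did not pass, black bars are list medians, and height within a row has no meaning. Luminal keratins and luminal markers lie to the right, VIM and the fibroblast and endothelial markers to the left, and most myoepithelial markers to the left. KRT5 (-0.30) and KRT17 (-0.33) lie nearer 0, and KRT14 (-0.65) lies close to the myoepithelial markers MYH11 (-0.88) and MME (-0.89). The gap between basal keratins and myoepithelial markers was not tested.

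The markers of the labelled tissues moved with the luminal keratins and VIM. Of 14 luminal markers on the array 11 were tested, of which 9 were higher in epithelium and 0 in stroma, and the median difference over all 14 was 2.37. PRLR, the prolactin receptor, averaged 8.02 ± 0.44 in epithelium and 3.27 ± 1.19 in stroma (SD, n = 6 each, adjusted p = 0.000969), ESRP1, a splicing regulator of epithelial cells, 8.01 ± 0.69 in epithelium and 3.71 ± 1.03 in stroma (adjusted p = 0.00130), and CDH1, the cadherin of epithelial junctions, 8.16 ± 0.51 in epithelium and 3.99 ± 1.08 in stroma (adjusted p = 0.000612). Of 14 fibroblast markers on the array 10 were tested and these 10 were higher in stroma, with a median of -5.41 over all 14. FBLN1, a matrix glycoprotein, averaged 3.13 ± 0.52 in epithelium, about the array medians, and 10.42 ± 0.43 in stroma (adjusted p = 5.4e-05). The 4 that were too dim to be tested included THY1, a surface protein of fibroblasts and other cells, which went the other way. THY1 averaged 3.70 ± 1.47 in epithelium and 2.25 ± 0.74 in stroma, with 5 of 6 cows higher in epithelium. The means of FAP, POSTN and TCF21 were below the array medians in both tissues. In cow 6, however, POSTN was above them, at 3.99 in epithelium and 5.36 in stroma. Endothelial markers also went to stroma, 5 of 6 tested, with a median of -3.16 over the 11 on the array. In the dimmer tissue, 4 of the tested luminal, 4 of the fibroblast and 4 of the endothelial markers averaged less than the lowest mean tested (3.57), so they were tested through the tissue where they were bright, and the counts among tested markers give no separate support to the tissue labels. Of 7 tested leukocyte markers, 1 passed the test as higher in stroma, the antibody joining chain JCHAIN. JCHAIN averaged 5.07 ± 1.65 in epithelium and 11.35 ± 0.37 in stroma (adjusted p = 0.000352, limma). The leukocyte marker PTPRC was bright in both tissues, at 8.42 ± 0.64 in epithelium and 9.14 ± 0.46 in stroma (adjusted p = 0.299, limma). The median over the 11 leukocyte markers on the array was -0.72. Of 3 tested smooth muscle and pericyte markers, 0 passed (1 was higher in stroma at an unadjusted p under 0.05 in limma). All 6 on the array had a higher mean in stroma, with a median difference of -1.15. Endothelial cells, leukocytes, smooth muscle cells and pericytes hold vimentin as well, so VIM is not a measure of fibroblasts alone.

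The myoepithelial markers, which share their cell type with KRT5, KRT14 and KRT17, had a median difference of -1.58 over the 13 on the array. Over the 11 tested it was -1.82. Of 11 tested, none passed in epithelium (0 at an unadjusted p under 0.05 in limma, too) and 4 passed in stroma. The count of 4 was 2 without cow 1 or cow 2, 3 without cow 3 or cow 6, 1 without cow 4 and 5 without cow 5. It was also 5 without both cows 5 and 6. Those that passed were SPARC, a matrix protein that fibroblasts also make, at 38.9-fold (adjusted p = 0.000336), TPM2, a tropomyosin, at 6.58-fold (adjusted p = 0.0146), MYLK, the kinase of smooth muscle myosin, at 4.27-fold (adjusted p = 0.0243), and TAGLN, an actin-binding protein of smooth muscle, at 3.53-fold (adjusted p = 0.0468). TAGLN lost its call without any 1 of the 6 cows (adjusted p up to 0.123), MYLK without cow 1, 2 or 4 (up to 0.0832) and TPM2 without cow 4 (0.05004). All 4 genes are also found in smooth muscle or fibroblasts, and other genes of the list, such as ACTA2, in smooth muscle. The medians of this list are therefore not a measure of myoepithelial cells alone. ACTA2, the actin of myoepithelium and smooth muscle, averaged 4.89 ± 1.66 in epithelium and 6.47 ± 1.00 in stroma (SD, n = 6 each, adjusted p = 0.237), with differences of -2.17 to -0.98 when each cow was left out. CDH3, a cadherin of basal epithelial cells, averaged 5.34 ± 1.37 in epithelium and 4.15 ± 1.98 in stroma (adjusted p = 0.509), with differences of 0.56 to 2.18 when each cow was left out. TP63, the defining transcription factor of basal cells, was not analysed here, since no probe set has it as its single symbol. The mean over the myoepithelial markers lay between 4.60 and 6.46 in epithelium and between 6.39 and 7.77 in stroma, and it was higher in the stroma of 5 of 6 cows.

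Of the proteins that anchor keratins at junctions, DSC2, a desmosomal cadherin, averaged 5.93 in epithelium and 3.24 in stroma (adjusted p = 0.0379), as 1 of 3 tested desmosome genes that passed. The stromal mean of DSC2 was below the lowest mean tested (3.57), so DSC2 was tested through epithelium, where it was bright. Leaving out any cow other than cow 2 ended that call, with adjusted p values of 0.0525 to 0.0907. The other 2 did not pass after adjustment, while all 3 were higher in epithelium at an unadjusted p under 0.05. Over the 12 desmosome genes on the array, most of them dim, the median difference was 0.37. JUP, which ties desmosomal cadherins to the filaments, averaged 6.22 ± 0.80 in epithelium and 5.05 ± 0.76 in stroma (adjusted p = 0.123), and PERP, a membrane protein of desmosomes, 8.81 ± 0.37 in epithelium and 6.89 ± 1.81 in stroma (adjusted p = 0.141), where leaving out cow 5 took the difference to 1.09, against 1.92 with all 6 cows. Of 5 tested genes of hemidesmosomes and basal adhesion, 0 passed in either direction in limma, with 0 in epithelium and 2 in stroma at an unadjusted p under 0.05. Among them, ITGB4, the integrin that holds KRT5 and KRT14 filaments at the basement membrane, averaged 5.24 ± 1.03 in epithelium and 5.84 ± 3.13 in stroma (adjusted p = 0.770). The stromal mean of ITGB4 rested on cow 6, at 11.95 against 3.60 to 6.19 in the other 5, and without cow 6 the direction turned, with 5.15 ± 1.13 in epithelium and 4.62 ± 1.04 in stroma (SD, n = 5 each, adjusted p = 0.692, limma). LAMB3, a chain of the laminin beneath it, averaged 4.29 ± 0.84 in epithelium and 6.02 ± 1.65 in stroma (adjusted p = 0.0601, and 0.0401 without cow 3). The genes of both junction types that did not pass are named after their values were seen.

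Other keratins were dim. Of 34 listed, 10 have a probe set with 1 symbol and 1 was tested, KRT3, a keratin of the cornea, at 3.81 ± 0.25 in epithelium and 3.82 ± 0.49 in stroma (SD, n = 6 each, adjusted p = 0.989). Of the other intermediate filament genes 3 were tested and 0 passed in limma, also at an unadjusted p under 0.05. LMNA, the nuclear lamin found in most cells, averaged 10.21 ± 0.46 in epithelium and 9.71 ± 0.67 in stroma (adjusted p = 0.391). Of those too dim to be tested, NEFM, a filament of neurons, was higher in epithelium in all 6 cows, with 3.70 ± 1.70 in epithelium and 2.01 ± 0.31 in stroma, and cows 1 and 6 held the high epithelial values (5.74 and 6.00). DES, the filament of muscle, had 2.50 ± 0.31 in epithelium and 3.91 ± 1.95 in stroma, and the stroma of cow 3 held the high value (7.82, against 2.84 to 3.88 in the other 5).

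Over the 12 arrays, the genes whose levels were most like KRT8 among the 5212 tested were C10H15orf48 (Pearson r = 0.962), FBXL14 (0.935), CDH1 (0.934), EPCAM (0.930) and DCAF12 (0.929). Those most like VIM were FGL1 (0.980), SPARC (0.977), FBLN5 (0.977), MYOC (0.975) and LUM (0.974). All of these genes passed the test in the same direction as KRT8 or VIM, and the correlations hold the tissue difference. For KRT5, whose tissues did not separate, the highest were BAZ1A (0.851), PDSS1 (0.836), SUGT1 (0.828), NOP2 (0.801) and ITPRIP (0.797), and none of these passed the test. With the tissue means removed, the genes most like KRT8 were PRADC1 (0.911) and C10H15orf48 (0.875), that most like KRT5 was CHD1 (0.908) and that most like VIM was SPRY1 (0.878). The arrays share cows, and the values are given as descriptions.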

How the data were processed

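Each cow gave 1 epithelial and 1 stromal capture, paired by the replicate number of the labels and the design of 2 cell types per animal. The deviations of both captures from their tissue means correlated by 0.026 to 0.20 within a cow. The deposited values are log2 intensities. The authors computed them by RMA, which includes quantile normalization, from 24 arrays together, and 12 of those are analysed here. Amplification and RMA both compress large differences and set a background, so folds against a dim tissue are not exact. The labels and the methods give different units for the hormone doses. Of 24128 probe sets, 112 controls were left out, and the 10000 with the highest mean over 12 arrays (at least 3.57) were tested in place of the detection calls of the study. Symbols came from the array annotation, and all 11 matched RefSeq by gene ID. Their names end in the suffix for probe sets without known shared targets. Probe sequences were not used, so signal shared between related keratins was not tested. Fits used R 4.3.3 and limma 3.58.1 with terms for tissue and cow (the study had no term for cow) and were tested on simulated data. Members and lists were chosen with earlier results of these data known. Named are all members, up to 4 genes per list with the largest differences past the threshold, the largest opposite one, and the 5 genes most alike KRT8, KRT5 and VIM. Other list genes named were chosen after their values were seen. Alternatives were no cow block, a random block, a trended robust prior, other filters, quantile normalization again, centring, the mean over probe sets and each cow left out. Leaving out cows 5 and 6, or KRT15, was added after seeing the data.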

Additional observations from a re-analysis of the deposited data

Results flagged for a closer look

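KRT14 was higher in epithelium by 1.82 and 1.79 in cows 1 and 2, whose labels give lactation numbers of 3 and 2, and higher in stroma in all 4 cows with lactation number 1. The mean epithelium minus stroma difference was 1.80 in the first 2 cows and -1.87 in the other 4, which differ by 3.68 on the log2 scale. It was found by comparing 11 probe sets after their values were seen, and KRT14 alone had opposite signs in the 2 sets of cows. The differences of cows 1 and 2 also lay above those of cows 3 to 6 for KRT18 (3.22 and 3.81 against 0.87 to 2.64) and for the dim probe set of KRT15 (1.45 and 1.27 against -0.88 to 0.74). None of this was tested, since 2 cows against 4 cannot give an exact p below 0.0667. The stromal control RNA was also lower in cows 1 and 2 (4.28 and 4.15) than in cows 3 to 6 (7.10 to 11.0), so lactation number and control RNA cannot be told apart here.

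VIM in the epithelium of cow 4, at 4.49, stood apart from the other 5 epithelial captures, of which the nearest was 5.64. The gap was 0.638 of the range, above Dixon's 95% critical value for 6 samples. Without cow 4 the VIM difference was -3.29 (limma, adjusted p = 0.00297).

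The second, dim probe set of KRT15 was 4.18 in the stroma of cow 5, with the nearest of the other 5 at 2.90, a gap of 0.761 of the range. The brighter KRT15 probe set was 4.04 there, within its stromal range of 3.30 to 4.14. Of 22 groups of 6 arrays examined in this way, 2 stood out, and chance alone gives about 1 in 20.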

How the results depend on the processing

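KRT7, KRT8, KRT19 and VIM kept their direction and passed the test under every alternative that included them, and KRT5, KRT14 and KRT17 kept their sign and did not pass under any, the fits without the replicate block among them. Without that block, KRT15 had a difference of 1.72 (adjusted p = 0.00328) and KRT18 of 2.34 (adjusted p = 0.00621), and no call of a member changed. With each cow left out in turn, KRT18 ranged from 2.04 to 2.63 and KRT15 from 1.52 to 1.85, and both calls were lost without cow 1. The KRT15 call was also lost without cows 5 and 6 (1.80) and with the mean over its probe sets (1.15). The count of members higher in epithelium was then 3 to 5 over left-out cows, and 3 with the 5000 brightest probe sets, which leave out KRT8 and KRT15, so these 2 have no value there. Over all tested probe sets, the 477 higher in epithelium became 274 with the 5000 brightest, 267 to 406 with a cow left out and 244 without cows 5 and 6, and the 454 in stroma became 239 with the 5000 brightest. Median centring gave 360 in epithelium and 515 in stroma, and moved the median of all differences to 0.0081. Signal near the array medians limits KRT8 in stroma and the second KRT15 probe set.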
